A study of Homo sapiens with 12 samples.

Results

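The genes described here encode PD-L1 and 9 other surface or secreted proteins through which tumor cells restrain or engage immune cells. The 10 genes, CD274, PDCD1LG2, CD276, VTCN1, CD47, PVR, NECTIN2, LGALS9, CD70 and TNFRSF14, were chosen by name as a family around an earlier result of these arrays, the higher CD274 signal under GM-453. Array features with exactly 1 annotated gene symbol among the 10 were taken, and each gene had 1 such feature, out of 22392 genes with a feature of their own.

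Transcripts of MDA-MB-231, a human triple-negative breast cancer (TNBC) line derived from a pleural effusion, were measured on 12 Affymetrix Human Gene 2.1 ST arrays, which read probes along whole transcripts. Untreated controls made up 4 arrays, GM-453 (5 µg/mL) had 3, paclitaxel (1 µg/mL) had 2 and GNE-140 (50 µM) had 3, each after 36 h of exposure. GM-453 is a cytostatic tetrahydroisoquinoline, paclitaxel stabilizes microtubules, and GNE-140 is an inhibitor of the lactate dehydrogenases. GM-453 and paclitaxel were dissolved in DMSO whereas the controls were untreated. Compound and any solvent cannot be told apart in a comparison with the controls. Values are the deposited log2 signals, and a difference of 1 on this scale is a doubling of the signal. The labels' cell line field reads MDA-MB-231 for every array, and no immune cells are named. However, the free-text descriptions of Control replicate 4 and of the GNE-140 arrays carry other line numbers, and which is right was not tested. Nothing in the labels says that replicates were cultured separately, so p-values measure the spread between arrays, which may be technical. In bulk RNA, fewer cells expressing a gene and less RNA of it per cell cannot be told apart.

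Many immune checkpoint ligands sit on the tumor cell surface and bind inhibitory receptors on lymphocytes or macrophages. PD-L1 and PD-L2 bind PD-1 on T cells, CD47 binds SIRPα on macrophages and holds back phagocytosis, and PVR and nectin-2 bind TIGIT and the activating receptor CD226. Interferon gamma is a known inducer of CD274 transcription, acting through the JAK-STAT pathway and IRF1, and MDA-MB-231 cells are known to express PD-L1 without added interferon.

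The CD274 promoter is shown because the results turn on this gene. The 250 bases before its start site (RefSeq, GRCh38.p14, chr9:5450292-5450541, plus strand) are printed with matches to elements of interferon signaling in capitals, on either strand. The longer capital run holds 2 overlapping matches to the interferon-stimulated response element, 2 GAAA runs with any 2 bases between them, which start 208 and 202 bases before the start site. The shorter run, 125 bases before the start site, matches the GAS element bound by STAT proteins, TTCNNNGAA.
CD274: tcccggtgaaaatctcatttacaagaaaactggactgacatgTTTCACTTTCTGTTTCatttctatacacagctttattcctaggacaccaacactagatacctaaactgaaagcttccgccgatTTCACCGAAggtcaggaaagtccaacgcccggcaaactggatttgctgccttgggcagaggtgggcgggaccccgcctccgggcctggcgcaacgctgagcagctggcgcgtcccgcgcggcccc
Of 35116 RefSeq promoter windows, each from 250 bases before to 50 after a start site, 3.57% held the first of these elements and 7.66% the second. Such a window was found for 8 of the 10 genes, with a pair of windows for CD276. LGALS9 had 1 match to the interferon-stimulated response element, 9 bases before its start site, and VTCN1 had 1 match to the AP-1 site TGANTCA, which 7.71% of all windows held. The other 5 genes had no match to these letters or to the E-box CACGTG, which 7.26% of all windows held. A match describes the letters only and is not a binding site.

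Among the arrays, Control replicate 4 was the least like the rest of its group. Its mean correlation over all features was 0.978 with the GNE-140 arrays and 0.960 at most with another control. The other controls were not all alike either. Control replicates 1 and 2 correlated at 0.975 with each other, whereas replicate 3 reached at most 0.966 with a control and 0.967 with a GNE-140 array. Array medians ran from 2.64 to 2.82. All 8 genes known to be high in MDA-MB-231 cells, such as VIM and CD44, lay above the array median on every array. Of 7 genes known to be low in these cells, 4 did too, as did 4 of 12 leukocyte markers. Summed log2 signals of the leukocyte markers ran from 34.2 to 38.7 in controls, from 32.3 to 34.6 under GM-453, from 34.6 to 35.0 under paclitaxel and from 38.2 to 38.6 under GNE-140. For the genes known to be high the sums ran, in the same order of groups, from 60.6 to 64.6, from 64.7 to 65.2, at 63.0 on both arrays and from 60.3 to 60.5. The part of these shifts in the results was not tested.

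CD274, which encodes PD-L1, had log2 signals of 5.17, 5.43, 5.66 and 5.22 on the 4 control arrays. Under GM-453 the signals were 6.86, 6.79 and 6.54, all above every control. Under paclitaxel they were 5.07 and 5.09, and under GNE-140 4.56, 4.44 and 4.79. The groups therefore lay in the order GM-453, Control, Paclitaxel, GNE-140, and no adjacent groups in that order overlapped. Means were 6.73 ± 0.17 (SD, n = 3), 5.37 ± 0.22 (SD, n = 4), 5.08 ± 0.01 (SD, n = 2) and 4.60 ± 0.18 (SD, n = 3). The GM-453 mean exceeded the control mean by 1.36 (SE 0.15), a 2.57-fold higher signal, and the paclitaxel mean by 1.65 (SE 0.18), 3.15-fold. Since the family was chosen on this gene's response to GM-453, both differences are given without a test. Under GNE-140 the CD274 signal fell 1.71-fold from that of the controls (log2 difference −0.77, SE 0.15, limma adjusted p = 0.0303). Paclitaxel and Control differed by −0.29 (SE 0.17, adjusted p = 0.553), and paclitaxel and GNE-140 by 0.48 (SE 0.18, adjusted p = 0.152), neither past the threshold of 0.05.

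The CD274 call under GNE-140 was narrow. Leaving out Control replicate 2 or 3, either paclitaxel array or any GNE-140 array moved its adjusted p to between 0.0557 and 0.176. Against Control replicate 4 alone, with the other controls set apart by a model term, the difference was −0.63 (adjusted p = 0.317). All 3 GNE-140 arrays lay below all 4 controls.

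**Figure D1:**
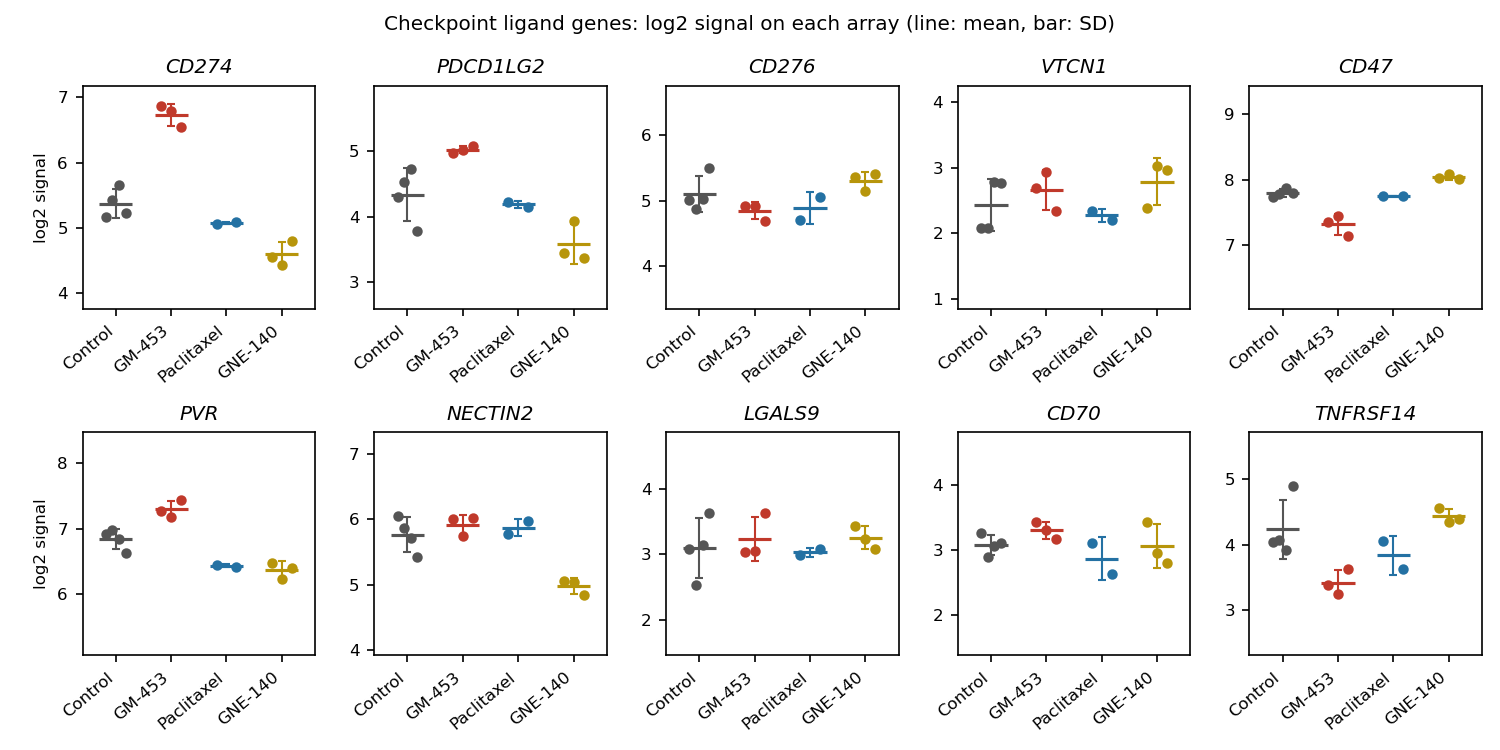
Log2 signal of the 10 genes on each of the 12 arrays, by group (points, arrays; horizontal line, group mean; bar, SD; each panel spans the same log2 range around the gene's mean). The GM-453 arrays lie above all controls for CD274, PDCD1LG2 and PVR and below them for CD47 and TNFRSF14.

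PDCD1LG2 encodes PD-L2, the other ligand of PD-1, and RefSeq lists 0 protein-coding genes between it and CD274. Control signals were 4.29, 4.53, 4.73 and 3.78, with replicate 4 lowest. The GM-453 arrays, at 4.97, 5.02 and 5.08, lay above every control. Signals were 4.23 and 4.15 under paclitaxel and 3.45, 3.94 and 3.38 under GNE-140, where replicate 2 overlapped the lowest control. The difference from controls was 0.69 for GM-453 (SE 0.21, adjusted p = 0.139), −0.15 for paclitaxel (SE 0.24, adjusted p = 0.880) and −0.75 for GNE-140 (SE 0.21, adjusted p = 0.116). None passed the threshold with all 4 controls in the model. Without Control replicate 4 the GNE-140 difference became −0.93 (adjusted p = 0.00906), in a fit where 12.3% of all genes were called. Against Control replicate 4 alone, with the other controls set apart by a model term, it was −0.195.

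CD276 and VTCN1 encode B7-H3 and B7-H4, B7 family members without an agreed receptor. CD276 signals overlapped between the controls (4.87 to 5.49) and each treatment, with ranges of 4.70 to 4.93 under GM-453, 4.71 to 5.06 under paclitaxel and 5.15 to 5.41 under GNE-140. The differences from controls, −0.25, −0.21 and 0.21, did not pass the test (adjusted p from 0.531 to 0.734). VTCN1 signals lay between 2.08 and 3.03 on all 12 arrays, around the array medians, and are not shown to exceed background. Its differences from controls ran from −0.15 to 0.36 and did not pass the test.

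CD47, the signal against phagocytosis, was lowest under GM-453 and highest under GNE-140, the reverse of CD274. Its control signals were close together at 7.73, 7.78, 7.87 and 7.80. The GM-453 arrays were lower, at 7.36, 7.45 and 7.14, without overlap. The paclitaxel arrays, both at 7.75, lay among the controls, and the GNE-140 arrays, at 8.02, 8.09 and 8.01, lay above all of them. GM-453 and Control differed by −0.48 (SE 0.11), a 1.39-fold lower signal that missed the threshold (adjusted p = 0.0508). Over the other settings its adjusted p ran from 0.0179 to 0.281, and it passed under 4 of them. For GNE-140 the difference was 0.25 (SE 0.11, adjusted p = 0.284) and for paclitaxel −0.04 (SE 0.12, adjusted p = 0.941).

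PVR and NECTIN2 encode the ligands CD155 and CD112. PVR signals were 6.92, 6.98, 6.84 and 6.63 in controls and 7.27, 7.18 and 7.44 under GM-453. They were 6.45 and 6.42 under paclitaxel and 6.48, 6.22 and 6.41 under GNE-140. Every GM-453 array was above, and every paclitaxel and GNE-140 array below, all controls. The differences from controls were 0.46 (SE 0.13, adjusted p = 0.102), −0.40 (SE 0.14, adjusted p = 0.270) and −0.47 (SE 0.13, adjusted p = 0.102), and none passed the threshold.

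NECTIN2 had another pattern. Its controls were 6.06, 5.87, 5.72 and 5.42, GM-453 gave 6.0, 5.74 and 6.02, and paclitaxel gave 5.78 and 5.97, all within the control range. The GNE-140 arrays, at 5.06, 5.05 and 4.84, lay below every other array. The fall of 0.78 on the log2 scale (SE 0.16, 1.72-fold, limma adjusted p = 0.0358) was the other call under GNE-140. The call was lost on leaving out any of 10 arrays, among them Control replicates 1 to 3 and each GNE-140 array (adjusted p from 0.0505 to 0.166). Against Control replicate 4 alone the difference was −0.44 (adjusted p = 0.478). GM-453 and Control differed by 0.15 (SE 0.16, adjusted p = 0.731).

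TNFRSF14 encodes HVEM, which binds BTLA and CD160 on lymphocytes and the cytokine LIGHT. Its control signals were 4.04, 4.07, 3.91 and 4.90, so replicate 4 stood far above the other controls. The GM-453 arrays, at 3.38, 3.24 and 3.63, lay below all controls. Paclitaxel gave 4.05 and 3.63 and GNE-140 gave 4.57, 4.35 and 4.39, both overlapping the controls. The difference for GM-453 was −0.81 (SE 0.22, adjusted p = 0.0951), and without Control replicate 4 it was −0.59 (adjusted p = 0.0774). CD70, the ligand of CD27, ranged from 2.63 to 3.43 over the 12 arrays and overlapped the controls in each treatment. LGALS9, galectin-9, ranged from 2.53 to 3.64 with the same overlap. Signals of both genes lay near the array medians and are not shown to exceed background. LGALS9 has near-identical copies in the genome, so its signal is uncertain as to source.

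**Figure D2:**
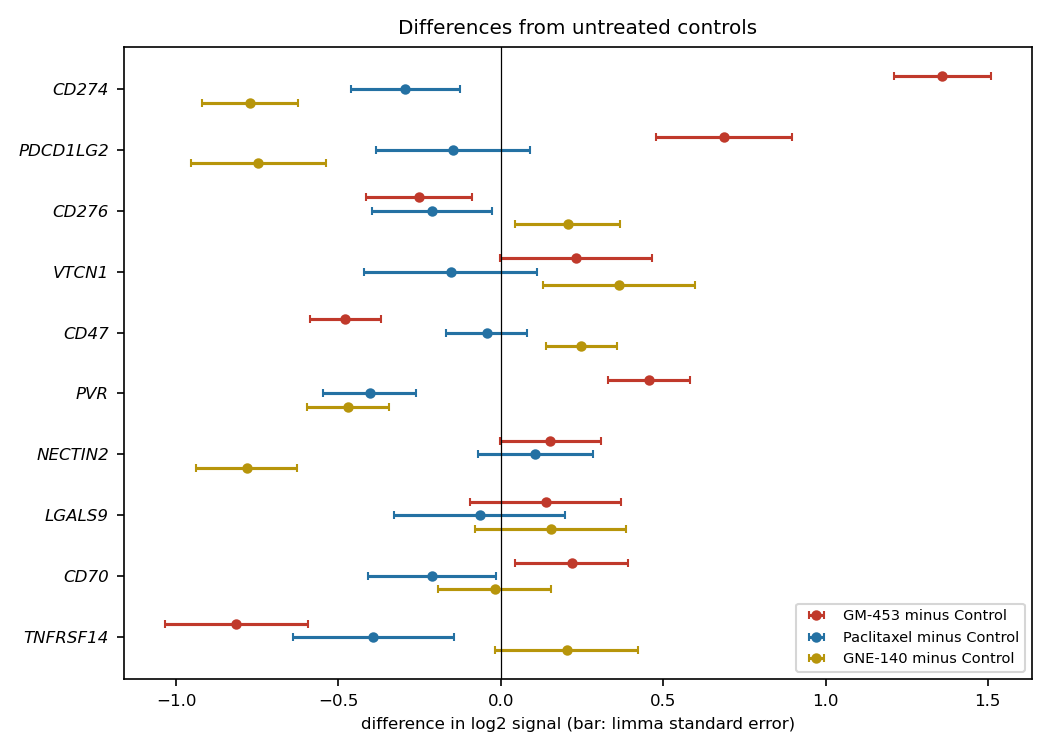
Difference in log2 signal between each treatment and the untreated controls for the 10 genes (point, difference of group means; bar, limma standard error). CD274, PDCD1LG2, PVR, NECTIN2 and CD70 lie right of 0 under GM-453 and left of 0 under GNE-140. CD47, TNFRSF14 and CD276 lie the other way round. The bars of CD70 and TNFRSF14 under GNE-140 and of NECTIN2 under GM-453 reach across 0.

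Counted over the family, 0 of the 9 genes tested passed the threshold between GM-453 and Control, where 2.48% of all genes did. At an unadjusted p under 0.05 there were 4 of 9 (CD47, PVR, TNFRSF14 and PDCD1LG2), against 16.6% of all genes. The median difference over the 10 genes was 0.19, and over all genes −0.016. The first value includes CD274, on whose response the family was chosen, so it is not evidence of a shift of the family. For paclitaxel, 0 of 10 passed, where 0.563% of all genes did, and 1 (PVR) had an unadjusted p under 0.05, against 12% of all genes. For GNE-140, 2 of 10 fell and 0 rose, where 1.65% of all genes were called in either direction. Without Control replicate 4 the GNE-140 count was 4, all lower, with PDCD1LG2 and PVR added, and the share of all genes called rose as well, to 12.3%. The methods' t-test, the one the study names for its experiments in general, called 0 members in each of these comparisons after Benjamini-Hochberg adjustment. Of all genes it called 0.0223% for GM-453, 0.0% for paclitaxel and 0.143% for GNE-140, so counts of 0 say little about the members. All 3 comparisons share the control arrays.

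GM-453 and paclitaxel, the 2 cytostatic compounds, were compared directly at their differing doses. CD274 differed most, as given above. PVR was higher under GM-453 by 0.86 (SE 0.15, adjusted p = 0.134), PDCD1LG2 by 0.84 (SE 0.25, adjusted p = 0.474), and CD47 differed by −0.44 (SE 0.13, adjusted p = 0.481). The arrays of the 2 groups did not overlap for PVR, PDCD1LG2 or CD47, and none of these genes passed the adjusted test. Nor did they overlap for CD70 (0.43, SE 0.21, adjusted p = 0.719) or TNFRSF14 (−0.42, SE 0.26, adjusted p = 0.798). CD70 signals are not shown to exceed background. How often groups of 3 and 2 arrays separate over all genes was not counted, so these separations are description only. NECTIN2 differed by 0.05 (SE 0.19) and CD276 by −0.04 (SE 0.19), and for both the arrays overlapped. In all, 0 of 9 genes tested were called, where 0.0357% of all genes were, and 3 of 9 had an unadjusted p under 0.05, against 7.36% of all genes.

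The widest separation in the family was between GM-453 and GNE-140, compounds that differ in target and dose. CD274 was higher under GM-453 by 2.13 (SE 0.16, 4.38-fold), given without a test because its GM-453 values led to the choice of the family. Of the 9 other genes 5 were called, where 11.5% of all genes were. PDCD1LG2 was higher under GM-453 by 1.43 (SE 0.22, 2.70-fold, limma adjusted p = 0.00306), NECTIN2 by 0.94 (SE 0.17, adjusted p = 0.00648) and PVR by 0.93 (SE 0.13, adjusted p = 0.00216). CD47 was lower, at −0.73 (SE 0.12, adjusted p = 0.00363), and so was TNFRSF14, at −1.02 (SE 0.24, adjusted p = 0.0215). The TNFRSF14 call was lost without GM-453 replicate 1 or 2 or any GNE-140 array (adjusted p from 0.0617 to 0.0847), and the other 4 held in each of the 12 fits that left out 1 array. With the limma term that set Control replicate 4 and the GNE-140 arrays apart, 0 of the 9 were called (3 at an unadjusted p under 0.05), where 0.746% of all genes were. Between paclitaxel and GNE-140, 1 of 10 was called, where 4.44% of all genes were. It was NECTIN2, higher under paclitaxel by 0.89 (SE 0.19, adjusted p = 0.0228), and the call was lost without either paclitaxel array or any GNE-140 array (adjusted p from 0.0634 to 0.194).

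**Figure D3:**
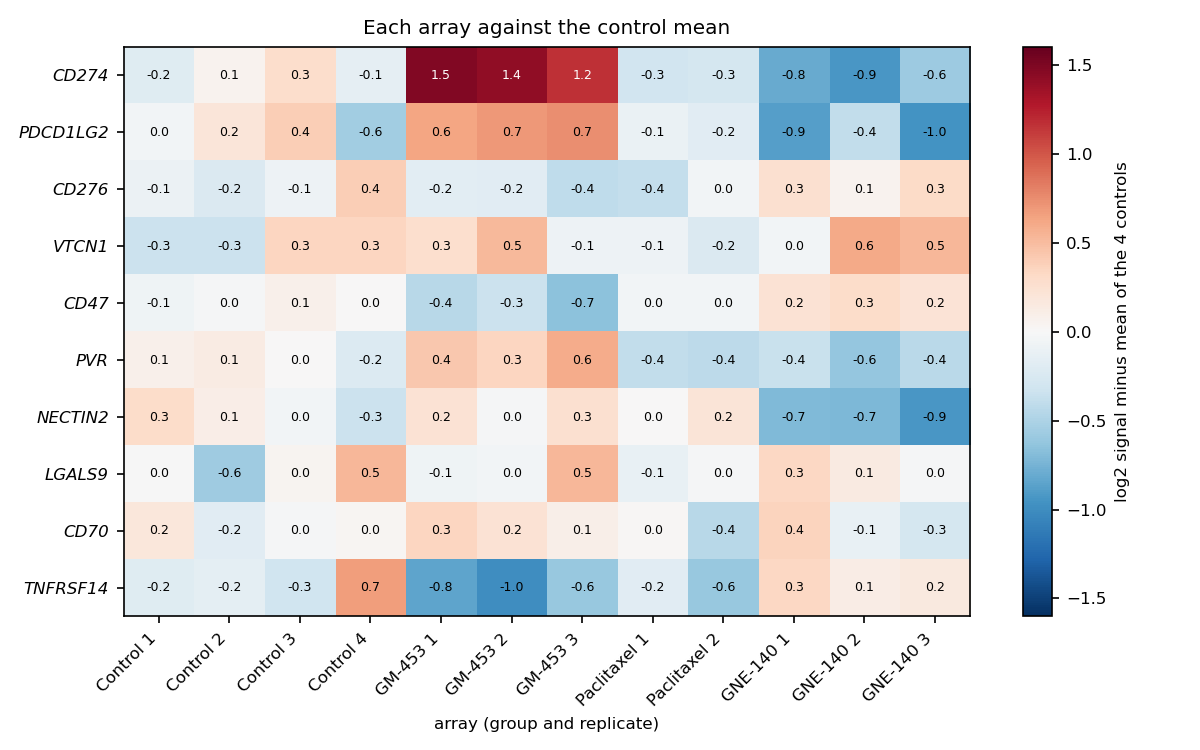
Each array's log2 signal minus the mean of the 4 controls for the 10 genes (color and printed value; columns, arrays; rows, genes). Control replicate 4 is lowest of the controls for PDCD1LG2, PVR and NECTIN2 and highest for CD276 and TNFRSF14, the side on which the GNE-140 arrays lie for each of these genes.

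Across the 12 arrays, PVR (Pearson r = 0.91) and PDCD1LG2 (r = 0.88) went up and down with CD274, and CD47 (r = −0.91) and TNFRSF14 (r = −0.78) went the other way. NECTIN2 (r = 0.63), CD276 (r = −0.55) and CD70 (r = 0.43) were looser, and VTCN1 (r = 0.07) and LGALS9 (r = −0.03) showed no clear relation. These values describe 12 arrays in 4 groups, whose group differences make up much of each r, and carry no test.

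**Figure D4:**
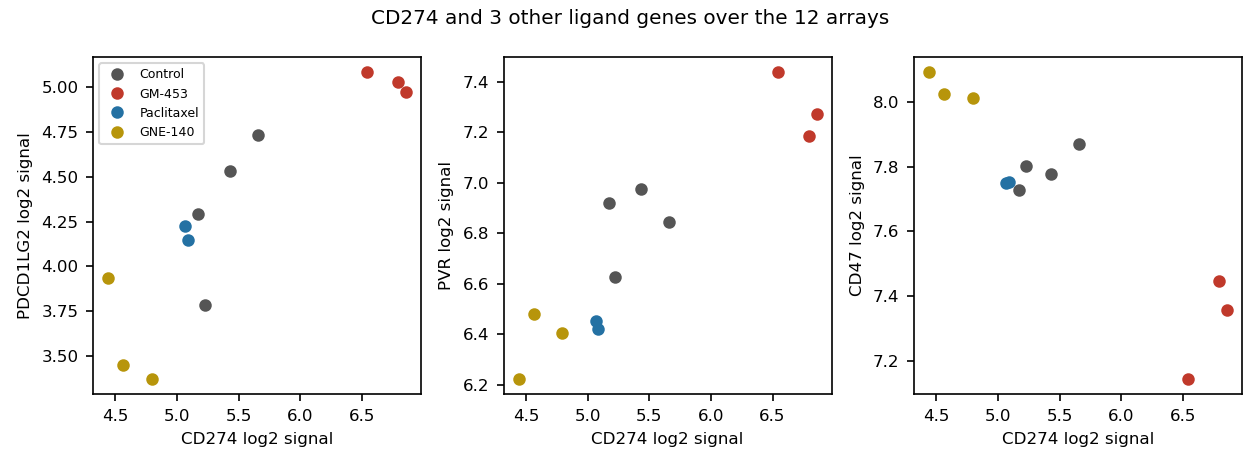
Log2 signal of CD274 (horizontal axis) against that of PDCD1LG2, PVR and CD47 (vertical axes) on the 12 arrays, colored by group. The GM-453 arrays form the right end in each panel and the GNE-140 arrays the left end.

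Among 5565 genes with a mean log2 signal of at least 5, the 5 whose pattern was most like that of CD274 over the 12 arrays were HBEGF (r = 0.988), GLIPR1 (r = 0.973), SRGAP1 (r = 0.969), RGMB (r = 0.966) and SH3RF1 (r = 0.962). HBEGF encodes a growth factor of the EGF family, and its group means were 5.86 in Control, 6.64 under GM-453, 5.53 under paclitaxel and 5.31 under GNE-140. RGMB, a co-receptor for bone morphogenetic proteins, had means of 5.49, 6.03, 5.30 and 5.20 in the same order. By Spearman correlation 2 of the 5 genes, and without Control replicate 4 3 of them, stayed among the top 5.

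Of 25 other ligands of immune receptors, 0 rose and 2 fell under GM-453, with a list median of −0.13. They were CD58, the adhesion ligand of CD2 on T cells, by 0.65 (SE 0.12, adjusted p = 0.0211), and BTN3A1, which presents phosphoantigens to γδ T cells, by 0.82 (SE 0.17, adjusted p = 0.0342). The CD58 call was lost without GM-453 replicate 3 (adjusted p = 0.0692), and that of BTN3A1 without any of 9 arrays (adjusted p up to 0.130). Under paclitaxel 0 of 25 were called (list median −0.20). Under GNE-140 2 fell, with a list median of 0.11. These were NECTIN3, an adhesion partner of PVR and nectin-2, by 0.85 (SE 0.13, adjusted p = 0.0125), and LGALS1, galectin-1, by 0.69 (SE 0.13, adjusted p = 0.0273). Without Control replicate 4, GNE-140 gave 4 rises and 2 falls in this list, where 12.3% of all genes were called. Each of these 2 calls was lost without any GNE-140 array, that of LGALS1 also without 5 others (adjusted p up to 0.161).

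Of 18 receptors for such ligands, TNFRSF9, the costimulatory receptor 4-1BB, fell under GM-453. Its mean was 3.62 ± 0.41 (SD, n = 4) in controls and 2.30 ± 0.29 (SD, n = 3) under GM-453, a fall of 1.32 (SE 0.21, adjusted p = 0.0106) to a level below the array medians. The call was lost without GM-453 replicate 2 (adjusted p = 0.0524). No other receptor was called in a comparison with the controls, and the list medians were −0.11, −0.14 and 0.08 for GM-453, paclitaxel and GNE-140. Without Control replicate 4, GNE-140 gave 2 rises and 1 fall among the receptors, beside the same 12.3% of all genes. PDCD1 and PVRIG were not analysed here.

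Of 12 genes of the interferon gamma pathway, 0 were called under GM-453 (list median −0.24) or paclitaxel (list median −0.19). IRF1, the factor through which interferon gamma is known to act on CD274, differed from controls by −0.78 under GM-453 (SE 0.27, adjusted p = 0.210). Its signals were 5.16, 4.89, 3.86 and 4.03 in controls and 3.56, 3.76 and 3.80 under GM-453. The gap was thus wide for Control replicates 1 and 2 and narrow for replicates 3 and 4. IRF1 is named for this role, a choice made after values were seen. Under GNE-140 IRF2, a repressor among the interferon regulatory factors, rose by 0.70 (SE 0.12, adjusted p = 0.0160, list median 0.11), and the call was lost without any GNE-140 array (adjusted p up to 0.0999). Without Control replicate 4, where 12.3% of all genes were called, the list had 2 rises and 1 fall under GNE-140.

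Among 13 transcription factors known to act on CD274, JUNB, a subunit of AP-1, fell under GM-453 by 1.08 (SE 0.14, adjusted p = 0.00360). Under paclitaxel 3 fell, JUND by 1.47 (SE 0.16, adjusted p = 0.00541), MYC by 1.06 (SE 0.14, adjusted p = 0.00985) and JUNB by 0.96 (SE 0.16, adjusted p = 0.0235), and each call was lost without either paclitaxel array. Under GNE-140 MYC fell by 1.18 (SE 0.13, adjusted p = 0.00118) and FOSL1, another AP-1 subunit, by 0.65 (SE 0.12, adjusted p = 0.0223). The calls of JUNB under GM-453 and of MYC under GNE-140 held whichever array was left out, while that of FOSL1 was lost without any of 5 arrays (adjusted p up to 0.130). The list medians were −0.0022, −0.18 and −0.10 for GM-453, paclitaxel and GNE-140, against −0.016, −0.013 and 0.027 over all genes. Without Control replicate 4, 4 factors fell under GNE-140, with 12.3% of all genes called.

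Of 13 genes that handle the PD-L1 or CD47 protein, such as CMTM6, which keeps PD-L1 at the cell surface, and QPCTL, which modifies CD47 at its SIRPα binding site, 0 were called in the comparisons of each treatment with the controls. Their list medians were −0.13, 0.02 and −0.08. The same held for 12 neighbors of CD274 on chromosome 9, with list medians of 0.14, 0.13 and −0.13. Between GM-453 and paclitaxel, 0 genes of any of these 6 lists were called, and without Control replicate 4 1 transcription factor was.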

How the data were processed

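RNA of MDA-MB-231 cells was hybridized to 12 arrays in 4 groups (4, 3, 2 and 3 arrays). The authors made the deposited log2 signals of 53617 features from the scanned arrays with Affymetrix Expression Console. For its version and settings, the sources used here give nothing. A gene name was found for 25718 features in the annotation of the platform (a single symbol for 23866, more than 1 for 1852), and the gene IDs of 22560 matched RefSeq. Every member had 1 feature, so the rule for choosing among several decided nothing. The members and gene lists were chosen with earlier results of these data known.

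All 12 arrays were fitted in 1 model with 4 groups (limma 3.58.1, R 4.3.3, lmFit and eBayes), with Benjamini-Hochberg adjustment over every feature, separately in each of 6 comparisons. The call needed an adjusted p under 0.05 and no minimum fold. The number of arrays limits the precision. Besides the members, the text names called members of each list, at most 4 per list and comparison, and the 5 genes most correlated with CD274. Exact promoter matches were sought on both strands. Alternatives were other models (the 2 groups alone, array weights, limma-trend, the methods' t-test, the replicate number as a block, a term for Control replicate 4 with GNE-140), features with a mean under 3 left out, quantile or median scaling, adjustment over named features, and each array left out in turn. Columns of the authors' own comparisons were not used.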

Additional observations from a re-analysis of the deposited data

Results flagged for a closer look

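The TNFRSF14 signal of Control replicate 4, at 4.90, lay far from the other controls, at 3.91 to 4.07. The gap to the nearest control was 0.836 of the whole range of the 4 arrays. Chance gives such a gap in about 1 of 20 groups of this size, and 10 genes were examined in the controls. Without this array the difference between GM-453 and Control was −0.59 in place of −0.81, and that between GNE-140 and Control 0.42 in place of 0.20. The cause was not tested.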

How the results depend on the processing

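With 2 to 4 arrays a group, calls near the threshold turned on single arrays and on the model. The count of members called between GM-453 and Control was 0 and became 1 with limma-trend and 1 with quantile normalization (CD47 each time). It was also 1 (CD47) with adjustment over features with 1 gene symbol, and 2 with dim features left out (CD47 and PVR). The share of all genes called there, 2.48%, rose as well, to 2.94%, 2.7%, 3.26% and 7.11% in the same order. Between GNE-140 and Control the count of members was 2. It became 4 with array weights, 3 with dim features left out and 0 with the 2 groups alone. It was 0 too with the methods' t-test and with a term for Control replicate 4 with GNE-140. Leaving out 1 array gave 0 to 4. With the replicate number as a replicate block it was 4. The share of all genes called, 1.65%, became 10.1% with array weights and 5.2% with dim features left out. It fell to 0.308% with the 2 groups alone, 0.143% with the methods' t-test and 0.263% with the term. It was 12.3% without Control replicate 4 and 9.88% with the block. Correlations between the deviations of same-numbered arrays ran from −0.078 to 0.126, so the numbers were not taken to pair the samples. Between GM-453 and paclitaxel the count of members was 0 and became 1 with array weights (PVR, adjusted p = 0.0387). The share of all genes called rose there from 0.0357% to 0.246%. Between GM-453 and GNE-140 CD274 is left out of the count, since the family was chosen on it. Of the 9 other genes 5 were called, and 0 with the term. CD276 was added with the 2 groups alone, with array weights and without Control replicate 4. The TNFRSF14 call was lost without any of 5 arrays. The share of all genes called, 11.5%, became 0.746% with the term, 21.8% with the 2 groups alone and 25.4% with array weights. Between paclitaxel and GNE-140 the count of members was 1 and became 2 with the 2 groups alone and 6 with array weights. It became 0 with the methods' t-test and 0 with the term, and leaving out 1 array gave 0 to 2. There the share of all genes called, 4.44%, became 20.5% with the 2 groups alone and 24.3% with array weights. It was 5.86% with the methods' t-test and 0.116% with the term. Of the 5 genes most like CD274, 2 stayed by Spearman correlation and 3 without Control replicate 4. Median centring shifted the median over all genes by −0.11 between GNE-140 and Control, 0.12 between GM-453 and GNE-140 and 0.11 between paclitaxel and GNE-140, and left these counts as they were.

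No called difference changed direction, and 41 values of uncalled differences did. Under the replicate block the paclitaxel differences from controls turned to 0.012 for VTCN1, −0.044 for NECTIN2 and 0.19 for LGALS9. Quantile normalization turned NECTIN2 in that comparison to −0.021, CD276 between GM-453 and paclitaxel to 0.020, LGALS9 between GM-453 and GNE-140 to 0.13 and PVR between paclitaxel and GNE-140 to −0.11. Array weights turned LGALS9 between paclitaxel and Control to 0.046, and median centring turned LGALS9 between GM-453 and GNE-140 to 0.11. The term for Control replicate 4 with GNE-140 accounted for the other 13. These were NECTIN2 (−0.0094) and LGALS9 (0.11) between paclitaxel and Control, CD276 (−0.19), LGALS9 (−0.38) and TNFRSF14 (−0.46) between GNE-140 and Control, CD276 (0.068), VTCN1 (0.32) and LGALS9 (0.70) between GM-453 and GNE-140, and PDCD1LG2 (−0.14), CD276 (0.11), PVR (−0.22), LGALS9 (0.50) and TNFRSF14 (0.29) between paclitaxel and GNE-140. The other 19 came from leaving out 1 array. Over those fits LGALS9 ran from −0.056 to 0.32 between GM-453 and Control. Against the controls, paclitaxel gave −0.0094 to 0.20 for NECTIN2, −0.26 to 0.11 for LGALS9 and −0.45 to 0.024 for CD70, and GNE-140 gave −0.037 to 0.33 for LGALS9 and −0.21 to 0.11 for CD70. Between GM-453 and paclitaxel CD276 ran from −0.21 to 0.13 and NECTIN2 from −0.048 to 0.14, and between GM-453 and GNE-140 VTCN1 ran from −0.34 to 0.027 and LGALS9 from −0.21 to 0.087. Between paclitaxel and GNE-140 PVR ran from −0.0067 to 0.12 and CD70 from −0.43 to 0.043. The cause of these changes was not tested.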
